A study of Mus musculus with 238 samples.

Results

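The subventricular zone (SVZ) was set against the adjoining caudate putamen (CP, the dorsal striatum) in 16 control libraries of the 238 in the series. These were all SVZ and CP libraries of the 2 control groups described below. Each of 8 mice gave both regions, so the comparison is within an animal. The controls came from 2 groups of 4 C57BL/6JN mice, all 19 months old. One group held females fed ad libitum (AL, mice 63, 66, 68 and 69), the controls of a diet experiment. The other held males injected with saline behind the eye (PBS, mice 72, 76, 80 and 84), the controls of a plasma experiment. Sex, injection and experiment are the same split and cannot be told apart. The age means that the mice are past the peak of adult neurogenesis, and no young group was compared here. RNA was read by unstranded bulk sequencing of homogenised tissue, so a level is an average over all cells in the piece. In such samples fewer cells of a type and less RNA per cell cannot be told apart, and this holds for every difference given here.

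The SVZ is the thin layer along the wall of the lateral ventricle. It is lined by ependymal cells, whose beating motile cilia move cerebrospinal fluid, and it holds astrocyte-like neural stem cells. These stem cells give rise to transit amplifying progenitors and then to neuroblasts, which migrate to the olfactory bulb. The CP beneath it consists mostly of spiny projection neurons that carry dopamine receptors, with a minority of cholinergic and GABAergic interneurons. The choroid plexus, a secretory epithelium that makes cerebrospinal fluid, lies free in the same ventricle and is easily carried into a dissection of its wall.

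Library totals ran from 2.36 to 21.9 M counts in SVZ (median 11.8 M) and from 6.19 to 18.5 M in CP (median 10.6 M). Some libraries stood apart in what they contained. The SVZ library of mouse 72 had the highest sum of the plexus epithelium genes (22142 CPM, counts per M) and of the spiny neuron genes (13775 CPM, against at most 8097 CPM in the other SVZ libraries). It also had the lowest sum of the septal and Zic genes (33.9 CPM, against at least 269 CPM). The CP library of mouse 76 held 419 CPM of ependymal and cilia genes, against at most 176 CPM in the other CP libraries, and 4140 CPM of plexus genes. The CP library of mouse 72 held 408 CPM of cortical projection neuron genes, against at most 48.7 CPM. Values that moved by over 1.5-fold when either mouse was left out are given without it too. The tissue labels were checked against marker genes. Spiny neuron genes summed to between 14220 and 24724 CPM in CP and ependymal genes to between 558 and 921 CPM in SVZ, and neither sum overlapped between the regions.

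Of 21076 genes in the table, 13974 passed the filter on low counts. A gene was called when its adjusted p was under 0.05 in the paired quasi-likelihood test of edgeR and its level differed at least 2-fold. By this rule 1112 genes were higher in SVZ (7.96% of those tested) and 414 were lower (2.96%). Without the fold limit 3409 were higher (24.4%) and 3375 lower (24.2%), and the median difference over all genes tested was -0.0039 on the log2 scale. These shares are the background for the counts in each gene list below. The direction was the same in 8 of 8 mice for 816 of the 1112 and for 380 of the 414. The lowest SVZ value lay above the highest CP value in 607 genes (4.34%), and the highest SVZ value lay below the lowest CP value in 748 (5.35%). Among 15 brain regions of control mice, SVZ had the highest mean level of 372 of the 1112 genes called higher (33.5%, against 5.50% of the genes tested). CP had the highest mean of 264 of the 414 genes called lower (63.8%, against 10.7%). The same SVZ and CP libraries made the calls, which raises both shares, so they describe the called genes and test nothing. Some regions lack libraries of some of the mice, so region means do not all rest on the same animals. The plot of all genes shows that the higher calls reach much larger differences than the lower ones.

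**Figure D1:**
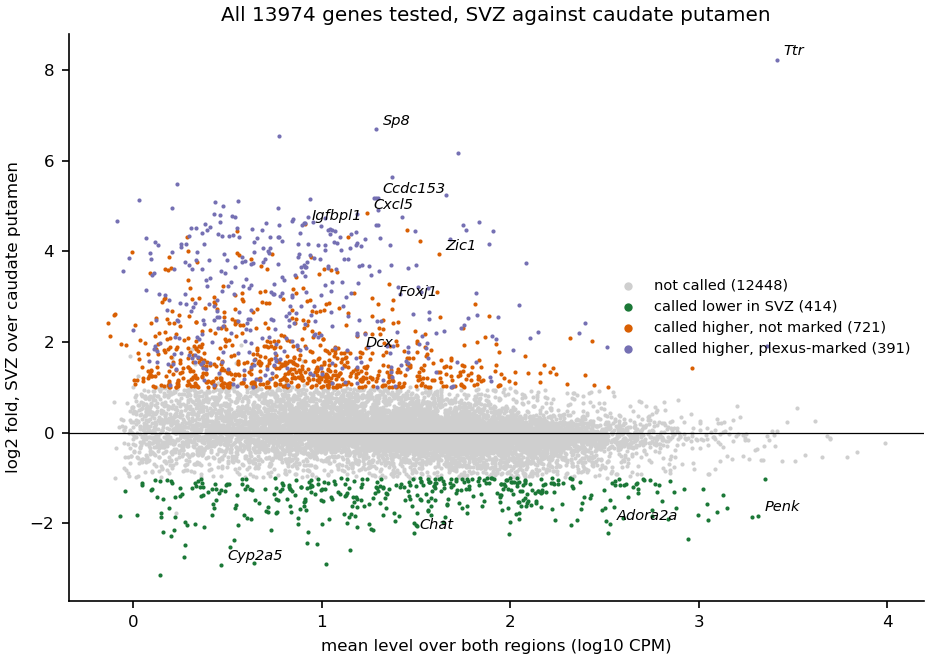
Each point is 1 of the 13974 genes tested, with its mean level over both regions (log10 CPM, horizontal) and its log2 fold of SVZ over CP (vertical). Colours separate 721 unmarked and 391 plexus-marked genes called higher and 414 called lower, and the lower calls end near -3.15 while Ttr reaches 8.24.

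Genes enriched in the choroid plexus libraries of the same mice were marked as possible carry-over. A gene was marked when its plexus level was at least 4-fold above CP with an adjusted p under 0.05 (edgeR), which held for 649 genes (4.53% of those tested in that fit). The mark fell on 391 of the 1112 genes called higher (35.2%), against 3.39% of all genes tested, and on 0 of the 414 called lower. Mark and call are both taken against the same CP libraries. This by itself raises the share among higher calls and lowers it among lower calls, so these shares are no test of carry-over. The mark is a statement about the choroid plexus libraries, not about a plexus cell. These plexus libraries themselves carried between 317 and 827 CPM of Slc17a7, the vesicular glutamate transporter of cortical neurons. Of the 391 marked genes, 183 had a higher mean in SVZ than in the plexus libraries and 208 did not. The plexus libraries of mice 63 and 66 held only 1158 and 762 CPM of plexus epithelium genes. The other plexus libraries held between 6884 and 11601 CPM, and the means behind the 183 and 208 include all of them. Marks made without the libraries of mice 63 and 66, chosen after seeing the data, covered 422 of the 1112 genes.

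Ttr, which encodes the thyroxine carrier transthyretin and is the most abundant plexus transcript, shows how much of this tissue each piece held. Its SVZ level was 9.17 CPM in mouse 63, 242 CPM in mouse 68, between 2486 and 2837 CPM in mice 66, 69, 80 and 84, 7916 CPM in mouse 76 and 18817 CPM in mouse 72. In CP it was at most 4.45 CPM in 6 mice, with 502 CPM in mouse 69 and 3379 CPM in mouse 76. Ttr was thus higher in SVZ in 8 of 8 mice while its values overlapped between the regions, with a log2 difference of 8.24 ± 1.84 (SE, adjusted p = 0.00408, edgeR). Without mouse 72 the difference was 6.66, without mouse 66 it was 7.46, without mouse 76 it was 9.48 and without mouse 69 it was 9.52. All 17 genes of the plexus epithelium list were called higher, with a median of 4.27. Among them were Kl (the FGF co-receptor klotho, 4.16), Kcnj13 (a potassium channel, 4.46), Prlr (the prolactin receptor, 4.58), Aqp1 (a water channel, 4.43) and Clic6 (a chloride channel protein, 2.14). Leaving out 1 mouse at a time moved Kl between 3.28 and 5.05, Kcnj13 between 3.32 and 5.67, Prlr between 3.79 and 5.45, and Aqp1 between 3.56 and 5.70, each lowest without mouse 72 and highest without mouse 76. The list median was 3.32 without mouse 72 and 5.45 without mouse 76, with 17 called in both fits. In the PBS mice alone 0 of the 17 were called, at a median of 4.82.

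Mouse 63 is the animal whose SVZ held the least plexus RNA, with 108 CPM of the list in all. Its SVZ to CP difference was at least 2-fold upward for 326 of the 391 marked genes (83.4%) and for 522 of the 721 unmarked ones (72.4%). Both sets were called from a fit that includes this mouse, which raises these shares, so they decide nothing about carry-over. A fit with the plexus level of each mouse as a covariate, chosen after seeing the data, was also made. It estimates the difference that SVZ and CP would have at equal plexus level, which lies outside the range of the mice, since the mean log2 plexus difference ran from 1.12 in mouse 76 to 7.97 in mouse 72. It called 707 genes higher and 516 lower, against 1112 and 414 without the covariate, and moved the share of higher calls from 72.9% to 57.8%. For the plexus list itself, from which the covariate was computed, 0 genes were called higher and 1 lower. Its values for the other gene groups are given with each group below.

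The ependymal and motile cilia genes formed the largest upward difference of any group without plexus identity other than the Zic genes. Of 38 tested, 35 were called higher and 1 lower, with a median log2 difference of 3.77, and 24 of the 35 carried the plexus mark. The summed level of the list in SVZ was the highest of 15 regions (mean 779 CPM), followed by corpus callosum (445 CPM), while CP had 169 CPM. Foxj1, the master transcription factor of motile ciliogenesis, ran from 27.5 CPM (mouse 68) through a median of 41.2 CPM to 52.2 CPM (mouse 72) in SVZ. In CP it ran from 1.57 CPM (mouse 63) through 4.05 CPM to 26.7 CPM (mouse 76). Every SVZ value was above every CP value, and the closest CP value was that of mouse 76. The log2 difference was 2.93 ± 0.336 (SE, adjusted p = 7.12e-05, edgeR), and Foxj1 did not carry the plexus mark.

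Most of the axonemal genes named here had a larger log2 difference than Foxj1, although the difference between genes was not tested. Ccdc153, a coiled-coil protein of motile cilia, was between 25.0 and 47.7 CPM in SVZ. In CP it was at 0 in 4 mice, at most 2.11 CPM in 3 more and 16.3 CPM in mouse 76. Its log2 difference was 5.19 ± 0.758 (adjusted p = 0.000317, edgeR), 6.39 without mouse 76 and 4.59 without mouse 72. Tmem212 (a membrane protein of multiciliated cells, 5.18), Dnah12 (an axonemal dynein heavy chain, 4.66), Hydin (a central pair protein, 4.30), Cfap44 (a cilia and flagella protein, 4.19), Dynlrb2 (a dynein light chain, 4.03) and Tekt1 (tektin, a filament of the axoneme, 3.33) followed. Rarres2, which encodes the chemoattractant chemerin, was at 1.59 ± 0.118, with a CP level between 18.0 and 44.4 CPM. Nme5 passed the test at 0.94, just under the fold limit. Without mouse 76 the difference was 6.43 for Tmem212, 5.49 for Dnah12, 5.24 for Hydin and 4.63 for Dynlrb2, and without mouse 72 it was 4.53 for Tmem212.

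Transcriptional regulators of ciliogenesis other than Foxj1 differed in direction. Rfx2 was called higher (1.69), while Rfx3, of the same RFX factor family, was at 0.11 with an adjusted p of 0.319. Mcidas, which encodes multicilin and starts the multiciliated programme, was lower in SVZ in 7 of 8 mice, between 0 and 1.73 CPM against 1.31 to 2.90 CPM in CP. Its log2 difference of -1.46 ± 0.365 (adjusted p = 0.00747, edgeR) rests on low counts.

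The promoters of the cilia genes were read for the X-box, the site that RFX factors bind, because these genes differ together. RefSeq windows (build GRCm38.p6) were matched by symbol for 34 of the 40 genes of the list, and the 250 bases before each transcript start in that table were searched on both strands for GTTGCCAT and for its shorter form GTTGCC. The longer form occurred in 3 of 34 (8.82%), against 1.3% of 10950 tested genes with a window and 1.29% of all 27025 genes in the table. It occurred in 5.21% of the marked genes called higher, in 1.85% of the unmarked ones and in 0 of 296 genes called lower. The shorter form, which the longer one contains, occurred in 12 of 34 (35.3%), against 12.9% of the tested genes and 11.8% of all. A gene can have several windows, and a match in any of them was counted. A match is a description of the sequence and not a bound site. The 3 genes with the longer form and 2 with the shorter one are shown with the match in capitals, on the strand of the gene, 5′ to 3′, from Tekt1 (chr11:72361883-72361922, minus strand), Cfap44 (chr16:44394759-44394798, plus), Sntn (chr14:13670794-13670833, plus), Ccdc153 (chr9:44240508-44240547, plus) and Dynlrb2 (chr8:116504947-116504986, plus). The windows of Tekt1 and Cfap44 belong to transcript starts that lie inside the span RefSeq gives the gene.
Tekt1: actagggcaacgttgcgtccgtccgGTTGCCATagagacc
Cfap44: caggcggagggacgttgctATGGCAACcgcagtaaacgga
Sntn: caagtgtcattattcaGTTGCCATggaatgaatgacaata
Ccdc153: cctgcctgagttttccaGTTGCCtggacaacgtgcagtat
Dynlrb2: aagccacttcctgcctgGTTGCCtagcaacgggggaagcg

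The cilia difference was also read mouse by mouse, including mouse 63 with the least plexus RNA in SVZ. The part of plexus tissue in it was not tested beyond the values given here. The list median was 3.57 in mouse 63 and between 2.95 and 3.79 in the other mice except mouse 76, where it was 1.21. Without mouse 76 the count was also 35 higher and 1 lower, at a median of 4.21, and without mouse 72 it was 35 and 1, at 3.51. With the plexus covariate 14 genes were called higher and 1 lower, at a median of 1.71. Foxj1 passed there at 1.98 (adjusted p = 0.0451) and Rarres2 at 1.35 (adjusted p = 0.00591), whereas Ccdc153 did not (1.37, adjusted p = 0.557). Mouse 76 has both the lowest value of the covariate and the CP library with the most ependymal RNA, and its part in this estimate was not tested. The plot of list medians against the plexus median shows mouse 76 apart from the others.

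**Figure D2:**
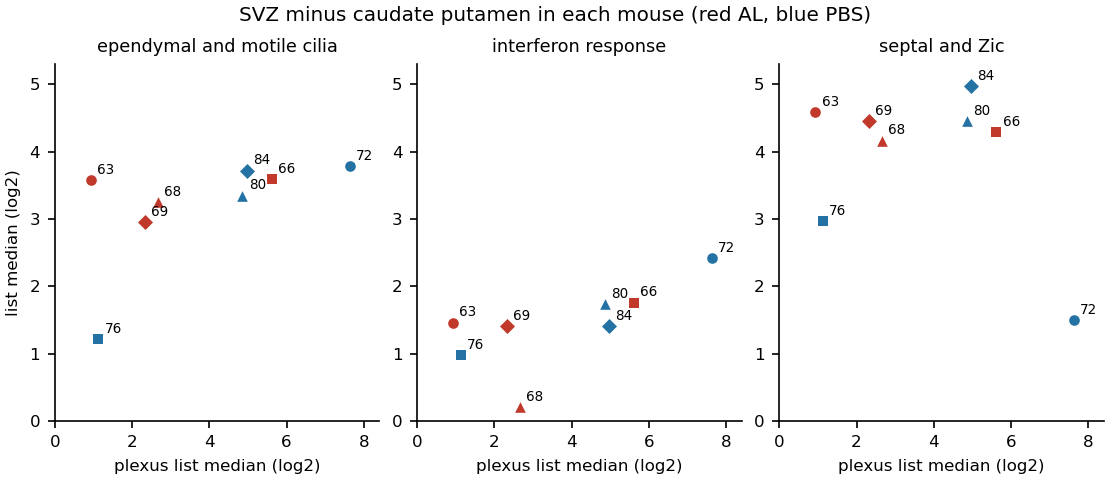
For each mouse (numbers, red AL, blue PBS), the median SVZ minus CP difference in log2(CPM + 0.5) of 3 gene lists (vertical) is plotted against that of the plexus epithelium list (horizontal). The cilia median lies between 2.95 and 3.79 in 7 mice and at 1.21 in mouse 76, the interferon median is highest in mouse 72 (2.42), and the Zic median is lowest there (1.5).

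Markers of neural stem cells and niche astrocytes differed less than those of the ependyma. Of 17 tested, 4 were called higher (against 7.96% of all genes tested) and 0 lower. Without the fold limit 9 passed upward (against 24.4%), and the median was 0.50. Thbs4, a thrombospondin of SVZ astrocytes, was between 9.59 CPM (mouse 66) and 52.9 CPM (mouse 68) in SVZ with a median of 31.8 CPM, and between 0 and 11.5 CPM in CP. The regions overlapped only through SVZ of mouse 66 and CP of mouse 76, and the log2 difference was 2.96 ± 0.474 (adjusted p = 0.000556, edgeR). Fabp7 (a fatty acid binding protein of radial glia, 1.45), Vim (the intermediate filament vimentin, 1.33) and Hes1 (a Notch effector, 1.16) were also called. Sox9 (0.89), Sox2 (0.94) and Slc1a3 (the glutamate transporter GLAST, 0.72) passed the test below 2-fold. Gfap, the filament protein that marks the stem cells but also every reactive astrocyte, was 692 ± 192 CPM in SVZ and 630 ± 454 CPM in CP (SD, n = 8). Its adjusted p was 0.251 and its values overlapped over most of their range, and Nes (nestin) was at 0.28 with an adjusted p of 0.207. In the covariate fit 3 of 17 were called and 5 passed. Thbs4 kept a similar difference but fell just short of the threshold (3.00, adjusted p = 0.0501, edgeR). Vim did not pass either (0.86, adjusted p = 0.149).

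Of 15 proliferation genes tested, 4 were called higher in SVZ and 0 lower, against 7.96% and 2.96% of all genes tested. The mitotic genes Cdk1, Birc5, Aurkb and Bub1 were too low to test. Top2a, the topoisomerase of dividing cells, ran from 1.92 CPM (mouse 66) through 5.09 CPM to 7.13 CPM (mouse 63) in SVZ and from 0.415 through 0.787 to 2.11 CPM in CP. Its log2 difference was 2.32 ± 0.338 (adjusted p = 0.000315, edgeR), and its SVZ mean was the highest of 15 regions. Rrm2, the ribonucleotide reductase subunit used in S phase, was between 3.83 and 8.10 CPM in SVZ and between 0.726 and 2.58 CPM in CP, without overlap. Cenpf (a kinetochore protein, 1.45) and Ccnb1 (cyclin B1, 1.39) were called as well. Mki67 passed the test just below the fold limit, at 2.84 ± 0.969 CPM in SVZ and 1.41 ± 0.365 CPM in CP (SD, n = 8). Egfr, the receptor of activated stem cells, was at 0.18 with an adjusted p of 0.264. Pcna was at -0.10 (adjusted p = 0.183) and Mcm5, a replication licensing factor, passed in the other direction at -0.36. In the plexus covariate fit 1 of the 15 was called, Rrm2 passing at 1.65 (adjusted p = 0.0152) and Top2a not (1.66, adjusted p = 0.103).

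Neuroblast genes were called higher in SVZ for 10 of 18 tested, against 7.96% of all genes tested, with 0 called lower and a median of 1.02. Igfbpl1, an IGF binding protein-like gene of migrating neuroblasts, was between 8.31 and 30.8 CPM in 7 SVZ libraries and 2.39 CPM in that of mouse 72. In CP it did not exceed 0.999 CPM, so no value overlapped. The log2 difference was 4.60 ± 0.422 (adjusted p = 2.43e-05, edgeR), and SVZ (15.7 CPM) exceeded the olfactory bulb (5.78 CPM), where the neuroblasts arrive. Sp8, a zinc finger factor of interneurons bound for the bulb, had a log2 difference of 6.70 ± 0.566 and was at 38.6 ± 21.6 CPM in SVZ against 0.393 ± 0.585 CPM in CP (SD, n = 8). Again mouse 72 was lowest in SVZ, at 2.20 CPM, and the mean of the olfactory bulb (186 CPM) was above that of SVZ. Without mouse 76 its log2 difference was 7.33. Sp8 carried the plexus mark although its plexus level was at most 3.47 CPM.

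Dlx1 (3.10) and Dlx2 (3.08), homeobox factors of ventral forebrain progenitors, Cd24a (2.85), Sox4 (1.89), Dcx (1.79) and Sox11 (1.45) were called higher without overlap between the regions. Dcx, the microtubule protein doublecortin, was between 13.4 CPM (mouse 72) and 36.6 CPM (mouse 84) in SVZ and between 3.78 and 9.20 CPM in CP. Other members of the list did not share this. Dlx5 was at 0.13 (adjusted p = 0.240), Tubb3 at 0.05 (adjusted p = 0.743), and Dlx6 passed in the other direction at -0.37. Summed over the list, the mean of SVZ (1382 CPM) ranked 10 among the 15 regions and that of CP (1013 CPM) ranked 14. The olfactory bulb was highest (2473 CPM), followed by the thalamus (2182 CPM). With the plexus covariate 9 of 18 were called higher at a median of 0.97, Dcx at 2.30 and Igfbpl1 at 6.87.

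**Figure D3:**
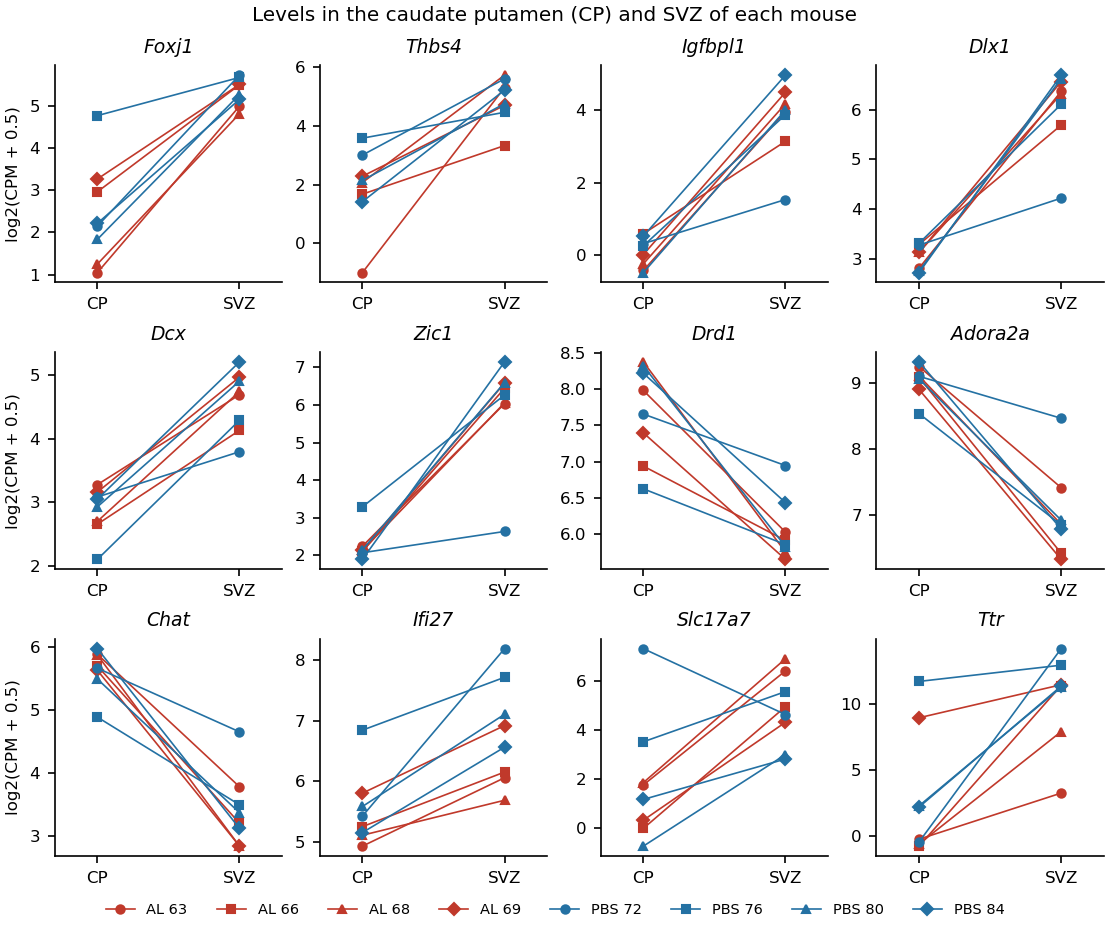
Each panel plots log2(CPM + 0.5) of 1 gene in CP and SVZ, with a line per mouse (red AL, blue PBS). Igfbpl1, Dlx1 and Zic1 are lowest in SVZ of mouse 72 (2.39, 18.2 and 5.71 CPM), Foxj1 and Ttr are highest in CP of mouse 76, and Drd1, Adora2a and Chat are lower in SVZ in every mouse.

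Genes of the Zic family, zinc finger factors of the septum, cerebellar granule cells and olfactory interneurons, were higher in SVZ. All 5 genes of the septal and Zic list used here were called higher, at a median of 4.24, and only Trpc4 carried the plexus mark. Zic1 was between 65.0 and 141 CPM in 7 SVZ libraries and 5.71 CPM in mouse 72, against 3.21 to 9.29 CPM in CP. The overlap came from SVZ of mouse 72 and CP of mouse 76 alone. The log2 difference was 3.95 ± 0.417 (adjusted p = 4.50e-05, edgeR) with all mice and 4.52 without both of these. Zic4 (4.47), Zic2 (4.33) and Zic5 (4.24) were likewise lowest in SVZ in mouse 72. Zic1 (chr9:91358058-91365768) and Zic4 (chr9:91365631-91389351) overlap in the annotation, so unstranded reads of the shared bases cannot be assigned to either.

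Zic4 had its highest mean of 15 regions in SVZ (54.6 CPM), whereas Zic1, Zic2 and Zic5 were highest in cerebellum (199, 54.3 and 90.6 CPM). Trpc4, a cation channel of lateral septal neurons, was 66.9 ± 29.5 CPM in SVZ and 6.31 ± 0.786 CPM in CP (SD, n = 8), with 6.32 CPM in SVZ of mouse 72. The list median was 4.59 in mouse 63, and with the plexus covariate all 5 were called, at a median of 4.69.

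Spiny projection neuron genes were lower in SVZ without exception. Of 27 tested, 24 were called lower, 27 passed the test downward, and the median was -1.67. In CP this list had its highest sum of 15 regions (mean 20495 CPM), followed by corpus callosum (12345 CPM) and then SVZ (6838 CPM), so the SVZ pieces still held striatal RNA. Adora2a, the adenosine receptor of the indirect pathway, was between 80.3 and 171 CPM in 7 SVZ libraries, 353 CPM in mouse 72 and between 371 and 638 CPM in CP. No value overlapped, and the log2 difference was -2.03 ± 0.209 (adjusted p = 4.01e-05, edgeR). Drd1, the dopamine receptor of the direct pathway, was between 49.7 and 123 CPM in SVZ and between 98.0 and 331 CPM in CP. Its overlap came from SVZ of mouse 72 and CP of mouse 76, and its log2 difference was -1.63 ± 0.233 (adjusted p = 0.000269, edgeR).

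Members of both output pathways were among the genes called lower. Drd2 (-1.66), Penk (enkephalin, -1.83), Tac1 (substance P, -1.72), Ppp1r1b (DARPP-32, the integrator of dopamine signals, -1.86), Foxp1 (-1.42) and Bcl11b (-1.49) were all called. Six3 (-1.08) was the least of the called members. Pdyn (prodynorphin, the peptide of the direct pathway, -0.53), Gnal (the striatal and olfactory G protein, -0.90) and Meis2 (-0.91) passed the test below 2-fold. The list median was -0.57 in mouse 72 and between -2.10 and -1.34 in the others. Without mouse 72 it was -1.84 with 24 called, and with the plexus covariate -2.03 with 27 called.

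Interneuron genes of the striatum were lower for 7 of 10 tested and higher for 1. Chat, the acetylcholine synthesising enzyme, was between 6.68 and 24.7 CPM in SVZ and between 29.1 and 62.2 CPM in CP, without overlap. Its log2 difference was -2.21 ± 0.238 (adjusted p = 4.99e-05, edgeR). The other cholinergic genes Slc5a7 (choline uptake, -2.05), Slc18a3 (vesicular acetylcholine transport, -1.85) and Lhx8 (their LIM homeobox factor, -2.02) were also called lower. Slc18a3 lies inside the Chat locus, and unstranded reads there cannot be split. Th (-2.19), Npy (-1.63) and Pvalb (-1.77) were called lower, whereas Nos1 (-0.77) and Sst (-0.48) passed below 2-fold. The covariate fit called 6 of 10 lower and 0 higher, and Pvalb did not pass (-2.10, adjusted p = 0.115).

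Calb2, which encodes calretinin and marks both a rare striatal interneuron and olfactory bulb interneurons, went the other way. Its SVZ levels were 2.06, 12.4, 14.6 and 57.5 CPM in mice 72, 68, 63 and 84, and between 155 and 328 CPM in mice 66, 69, 76 and 80. CP was at most 2.91 CPM in 7 mice and 24.4 CPM in mouse 76. The values overlapped, and the log2 difference was 4.65 ± 0.822 (adjusted p = 0.00102, edgeR), with the plexus mark. Without mouse 76 it was 5.26. In the covariate fit Calb2 did not pass (3.01, adjusted p = 0.227).

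**Figure D4:**
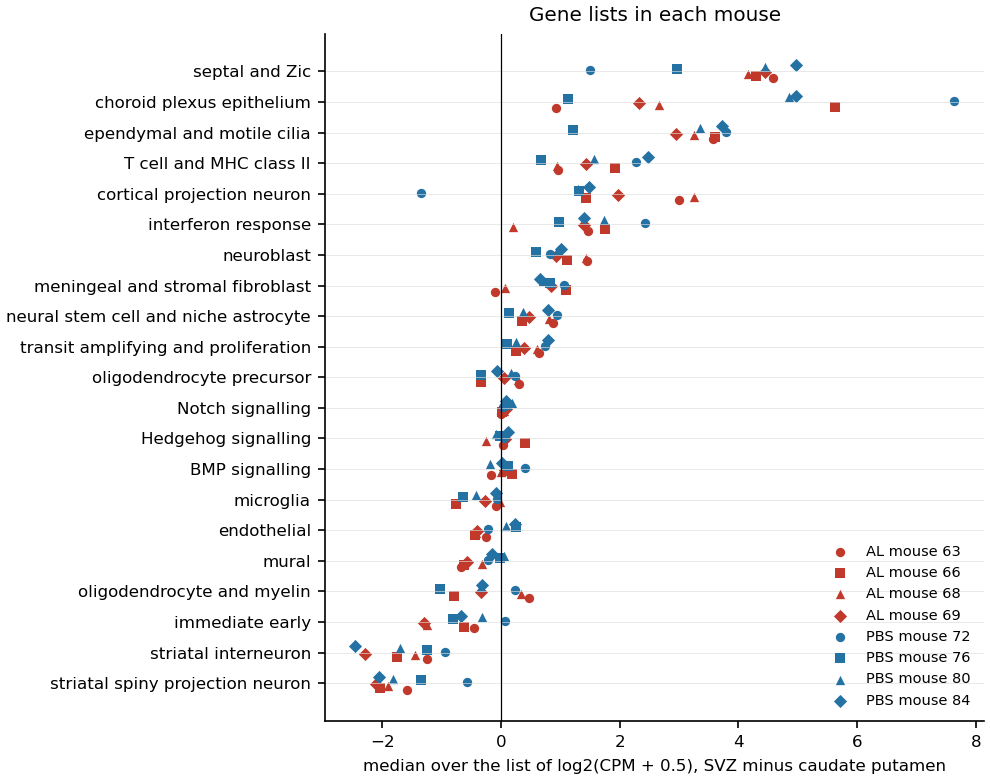
Points are the median over each gene list of the SVZ minus CP difference in log2(CPM + 0.5), 1 per mouse (red AL, blue PBS, symbols by mouse). The Zic, plexus, cilia and interferon medians are above 0 in all 8 mice and the spiny and interneuron medians below 0, while the cortical median of mouse 72 is -1.35.

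Interferon response genes were higher in SVZ as a group. All 11 tested were called higher, at a median of 1.46, and none carried the plexus mark. The sum of the list was between 177 and 829.9 CPM in SVZ and between 84.4 and 321 CPM in CP, and the SVZ mean (431 CPM) was the highest of 15 regions, ahead of corpus callosum (366 CPM). Ifi27, an interferon-inducible membrane protein, was between 51.2 CPM (mouse 68) and 290 CPM (mouse 72) in SVZ with a median of 107 CPM. In CP it was between 30.1 and 55.5 CPM in 7 mice and 114 CPM in mouse 76. It was higher in SVZ in 8 of 8 mice with overlapping values, and its log2 difference was 1.29 ± 0.210 (adjusted p = 0.000602, edgeR). Usp18 (the negative regulator of the interferon receptor, 2.07), Ifit1 (1.79), Ifitm3 (1.55), Bst2 (tetherin, 1.52), Ifit3 (1.46) and Isg15 (1.43) were called, as were Oasl2 (1.75), Rtp4 (1.46), Lgals3bp (1.45) and Irf7 (1.33).

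These genes moved with the plexus content of the pieces. The SVZ sums were highest in mice 72 and 76, the mice with the most Ttr in SVZ (829.9 and 619.6 CPM), and lowest in mice 68 and 63 (177 and 234 CPM), the mice with the least. The CP sum was highest in mouse 76. With the plexus covariate the median was 0.66 and 1 of 11 was called, Oasl2 at 1.53 (adjusted p = 0.0488, edgeR). The list median was nonetheless 1.46 in mouse 63, and the highest SVZ sum was above that of every plexus library, which ran from 147 to 334 CPM. The part of plexus tissue in the interferon difference was not tested beyond these values.

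MHC class II genes, which mark antigen presenting cells of the plexus, meninges and vessels, were higher for 4 of 4 tested at a median of 1.66, and 3 of the 4 carried the plexus mark. H2-Ab1 was between 2.67 CPM (mouse 68) and 17.4 CPM (mouse 76) in SVZ and between 0.605 and 10.5 CPM in CP. Its log2 difference was 2.09 ± 0.281 (adjusted p = 0.000188, edgeR). It was lowest in SVZ in mice 63 and 68, the mice with the least plexus RNA, and in the covariate fit it did not pass (0.92, adjusted p = 0.130), nor did any other of the 4. The 8 T cell genes of the same list were too low to test. Of 14 microglia genes 0 were called in either direction (edgeR) and 6 passed downward, against 24.2% of all genes tested, at a median of -0.28. Cx3cr1 (the fractalkine receptor, -0.35), Csf1r (-0.25) and Trem2 (-0.42) were among those 6. Once the plexus covariate was in the fit, 0 of the 14 passed.

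Cortical projection neuron genes, which mark tissue outside both regions, were higher in SVZ in 7 of 8 mice. The list median was between 1.29 and 3.25 in these 7 and -1.35 in mouse 72, whose CP library held cortical RNA. With all mice 5 of 6 were called higher at a median of 2.09, all 5 with the plexus mark. Without mouse 76 3 of 6 were called at 2.16, without mouse 72 4 of 5 at 1.75, and with the plexus covariate 5 of 6 at 4.52. In the AL mice alone 6 of 6 were called at a median of 3.74, and in the PBS mice alone, which include mouse 72, 0 of 6 at 0.76. The list median of PBS mice 76, 80 and 84 was 1.32, 1.29 and 1.48, and that of AL mouse 66 was 1.44. Slc17a7 was between 6.57 and 119 CPM in SVZ, highest in mice 68 and 63. In CP it was at most 11.0 CPM in 7 mice and 159 CPM in mouse 72. Its log2 difference was 3.21 ± 0.976 (adjusted p = 0.0201, edgeR), and 4.16 without mouse 72. Its call was lost without mouse 63, 66, 68 or 69 (2.73 to 3.04, adjusted p from 0.0505 to 0.0594) and in the unpaired fit (adjusted p = 0.325). Tbr1, a factor of deep layer neurons, was at 3.86, and at 5.12 without mouse 72, and its call was lost in the unpaired fit (adjusted p = 0.206). The region by experiment term was not called for any gene of this list.

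The remaining cell types were tested in the same way. Of 19 oligodendrocyte and myelin genes 0 passed the test (edgeR, also 0 at an unadjusted p under 0.05), 19 of 19 had a log2 difference below 0, and the median was -0.22. The mice differed in direction. The list median was 0.47, 0.34 and 0.23 in mice 63, 68 and 72, and between -1.02 (mouse 76) and -0.32 (mouse 84) in the others. Mbp was at -0.23 (adjusted p = 0.330), between 6610 and 12112 CPM in SVZ and between 5340 and 20991 CPM in CP. Of 12 endothelial genes 0 were called (edgeR), 1 passed upward and 1 downward, and the median was -0.23. At an unadjusted p under 0.05 there were 6, of which 1 was higher and 5 were lower. Slc2a1, the glucose transporter of the barrier, passed at 0.40, and Cldn5 was at -0.16 with an adjusted p of 0.350 (edgeR). Of 10 oligodendrocyte precursor genes Bmp4 alone was called (median 0.10), and 0 with the plexus covariate. Of the 5 blood genes only Alas2 could be tested (0.14, adjusted p = 0.583). Of 7 mural genes 4 passed the test downward below 2-fold (24.2% of all genes passed downward) and 1 was called higher (7.96% of all), at a median of -0.39. The latter was Acta2, smooth muscle actin (1.26), which did not pass with the plexus covariate (adjusted p = 0.231). Of 11 meningeal and stromal fibroblast genes 3 were called higher (against 7.96% of all genes) and 6 passed upward (against 24.4%). Aebp1 was at 2.17 and Col1a2, a chain of collagen I, at 1.79. In the covariate fit 1 was called, and Aebp1 did not pass (1.43, adjusted p = 0.0657).

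Developmental signalling genes were mixed within each pathway. Over all genes tested 7.96% were called higher and 2.96% lower. The few calls in these short lists are given gene by gene and not as a trait of a pathway. Of 9 Hedgehog genes 2 were called higher and 1 lower at a median of 0.03. The co-receptors Boc (1.62 ± 0.156) and Gas1 (1.44 ± 0.111) were higher without overlap. Boc was between 9.86 and 13.3 CPM in SVZ and between 2.49 and 7.74 CPM in CP. The ligand gene Shh was lower (-1.57 ± 0.233), as were, below 2-fold, Gli3 (-0.77) and the decoy receptor Hhip (-0.91), while Smo passed at 0.80.

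Of 16 BMP genes 2 were called higher and 1 lower at a median of 0.08. Nog, which encodes the BMP antagonist noggin that shields the niche, was between 2.98 and 12.3 CPM in 7 SVZ libraries, 0.608 CPM in mouse 72 and between 0.337 and 1.81 CPM in CP (2.05 ± 0.475). The ligand Bmp4 was also called (1.06), and its call was lost without mouse 66, 69, 72 or 84 and with the plexus covariate (-0.25, adjusted p = 0.794). Bmp2 was lower (-1.09). Of 12 Notch genes Hes1 alone was called, at a median of 0.03 for the list, with Hey2 (0.68) and Notch1 (0.34) passing upward and Jag1 (-0.65) downward.

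**Figure D5:**
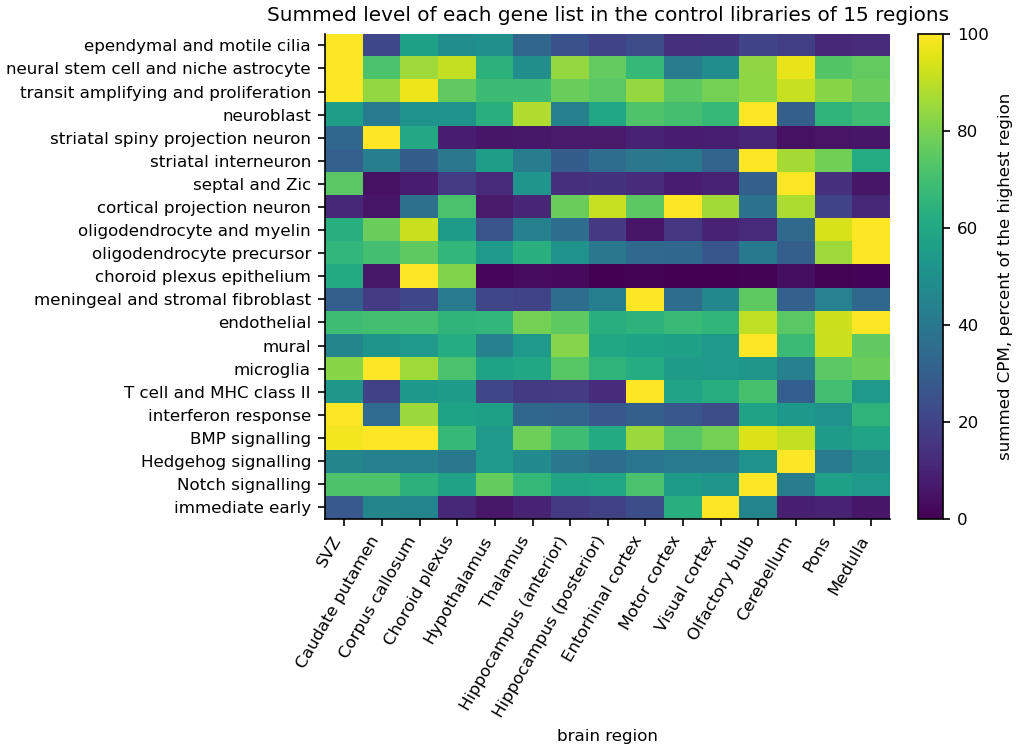
Colour gives the mean summed CPM of each gene list (rows) in the control libraries of 15 brain regions (columns), as a percent of the region with the highest sum. SVZ is the highest column for the cilia, stem cell, proliferation and interferon lists, CP for the spiny neuron and microglia lists, and corpus callosum for the plexus list. For the stem cell list SVZ (2466 CPM) is close to cerebellum (2380 CPM), and for the proliferation list (148 CPM) to corpus callosum (144 CPM).

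The genes with the largest differences were then taken by size, among called genes with the same direction in 8 of 8 mice and at least 5 CPM in the higher region. The 15 largest unmarked ones higher in SVZ held 4 Zic genes, Igfbpl1 and several genes of multiciliated cells. Cxcl5, a neutrophil chemokine, led them. It was between 11.7 CPM (mouse 66) and 63.3 CPM (mouse 84) in SVZ, at most 2.22 CPM in 7 CP libraries and 8.94 CPM in mouse 76, without overlap. Its log2 difference was 4.85 ± 0.646 (adjusted p = 0.000177, edgeR), 5.61 without mouse 76, and its SVZ mean of 33.1 CPM was far above the next region, corpus callosum (8.02 CPM). Hdc, the histamine synthesising enzyme, was between 14.2 and 22.2 CPM in SVZ and had a median of 1.31 CPM in CP, with 10.8 CPM in mouse 76 (3.61 ± 0.479). Only hypothalamus, where histamine neurons lie, had a higher mean (25.2 CPM).

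Uox, the urate oxidase gene known from liver, was highest in SVZ of the 15 regions (6.56 CPM, 3.96). Met, the hepatocyte growth factor receptor, was at 3.95, with 35.7 CPM in SVZ of mouse 84, 0.983 CPM in mouse 72 and between 4.69 and 11.7 CPM in the rest. Ccdc78, a protein of the deuterosomes from which multiciliated cells build their basal bodies, was at 3.67. Cdh26 (a cadherin, 4.46), Ttc29 (an axonemal protein, 3.92), Lrrc74b (3.87), Lrrc71 (3.83) and Armc3 (3.61) completed the set. Each of these 5 had its highest mean in SVZ. Without mouse 76 the difference was 5.18 for Cdh26, 4.85 for Ttc29 and 4.59 for Uox. With the plexus covariate Uox (2.76, adjusted p = 0.0809), Hdc (1.89, adjusted p = 0.128), Ttc29 (1.86, adjusted p = 0.284) and Armc3 (1.83, adjusted p = 0.106) did not pass. Among marked genes the 8 largest were Ttr, Sp8, Ccdc153 and Tmem212, already given, with Slc14a2 (a urea transporter, 6.54), Cdhr4 (a cadherin-related protein, 5.19), Fam216b (5.15) and Got1l1 (5.12). Without mouse 76 these 4 were at 7.25, 6.23, 6.40 and 6.35, and of them Cdhr4, Fam216b and Got1l1 did not pass with the plexus covariate. Slc14a2 averaged 11.7 CPM in SVZ, above its mean in the plexus libraries (2.55 CPM).

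The 15 genes lowest in SVZ by the same rule were led by Cyp2a5, a cytochrome P450. It was at most 2.53 CPM in SVZ and between 2.75 and 7.05 CPM in CP, with a log2 difference of -2.92 ± 0.488 (adjusted p = 0.000731, edgeR). Its near-identical relative Cyp2a4 makes the assignment of its reads uncertain. Clspn, the replication checkpoint adaptor claspin, was between 1.23 and 9.45 CPM in SVZ and between 10.5 and 23.3 CPM in CP (-2.90 ± 0.306). Rgs4, a regulator of G protein signalling that is abundant in striatal neurons, was between 189 and 675 CPM in SVZ and between 975 and 1735 CPM in CP (-2.36 ± 0.182). Scn4b (a sodium channel subunit, -2.22), Slc17a8 (the vesicular glutamate transporter of cholinergic interneurons, -2.44), Trh (thyrotropin releasing hormone, -2.38), Abi3bp (-2.16), Wnt8b (-2.15), Sec14l3 (-2.60) and the unnamed locus AC128672.1 (-2.88) were further members. The rest were Chat, Th, Cd4, Ikzf3 and Ptpn7.

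The experiments were compared last. In the AL mice 1245 genes were called higher (8.79% of 14160) and 521 lower (3.68%), and in the PBS mice 623 higher (4.46% of 13969) and 255 lower (1.83%). The higher calls shared 497 genes, 39.9% of the AL list and 79.8% of the PBS list, and the lower calls shared 230, 44.1% and 90.2%. No gene was called in opposite directions. The region by experiment term was called for 0 genes (0% of 13974), with 636 at an unadjusted p under 0.05 and a lowest adjusted p of 0.605 in edgeR, and DESeq2 called 1. The larger number of calls in AL mice is therefore not shown to be a difference between the experiments.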

How the data were processed

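Counts were deposited by the authors as a single table of whole numbers per gene, with 21076 gene rows and 238 libraries. The submitters' processing notes name Trim Galore 0.3.7, STAR 2.5.3a, DESeq2 and the build GRCm38, and the counting program and annotation are not given in the sources used here. The counts carry no strand. The SVZ and CP libraries of the 8 control mice were fitted with edgeR 4.0.16 (R 4.3.3) after filterByExpr (minimum count 10, minimum total 15) and TMM, with mouse and region as terms, and p-values were adjusted by Benjamini-Hochberg. The labels give each mouse number to all regions of an animal. Deviations from group means correlated at 0.276 on average within a mouse (-0.08 to 0.45) and at -0.09 between mice, so the mouse was kept as a block. Each mouse is a separate animal, and no pair of libraries within a group agreed within sampling noise (lowest chi-square per degree of freedom 4.17 in 24 pairs). Levels are CPM, counts per M of the TMM-scaled library total over 112 control brain libraries, and list medians per mouse use log2(CPM + 0.5). Marks came from a fit of 24 libraries with choroid plexus.

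Named genes were, among called genes with 1 direction in 8 mice and at least 5 CPM in the higher region, the 15 largest higher and unmarked, the 8 largest marked and the 15 largest lower, with any member of 22 gene lists. A few members are not reported here and were left out of the lists. The comparison and the lists were chosen with earlier results of these data known, so they support nothing independently. The lists are ependymal and motile cilia, stem cell and niche astrocyte, proliferation, neuroblast, spiny neuron, interneuron, septal and Zic, cortical neuron, myelin, oligodendrocyte precursor, plexus, fibroblast, endothelial, mural, microglia, T cell and MHC class II, interferon, blood, BMP, Hedgehog, Notch and immediate early genes. Of 142 genes named, 141 had a position in RefSeq. Among them Dlx1, Dlx6, Sox2, Six3, Ifi27, Ifit1, Rarres2, Rtp4, Lrrc71, Ptpn7, Aebp1, Gnal and Kcnj13 also overlap another gene of the table, so their counts are uncertain. Alternatives were RLE scaling, DESeq2 1.42.0, no filter, no mouse block, plexus libraries in the fit, each experiment alone and each mouse left out. The scripts were tested on simulated data.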

Additional observations from a re-analysis of the deposited data

Results flagged for a closer look

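In 25 of 168 sets of values examined, 1 mouse stood further from the rest than Dixon's limit allows, where chance gives about 1 in 20 (8.4 sets). The sets are not independent, since many are genes of the same list or the median of that list. A single odd library can thus be counted many times. In 12 of the 25 it was mouse 76, in 10 mouse 72, in 2 mouse 84 and in 1 mouse 68. All values are the SVZ minus CP difference in log2(CPM + 0.5), with the range of the other mice after each.

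In mouse 76, whose CP library held ependymal genes, the difference was 0.83 for Ttc29 (2.70 to 4.14), 1.02 for Armc3 (2.65 to 3.80), 1.23 for Ccdc153 (4.21 to 6.40) and 1.19 for Tmem212 (3.91 to 6.32). It was 1.68 for Fam216b (4.01 to 5.23), 1.59 for Got1l1 (3.52 to 3.91), 0.74 for Rarres2 (1.45 to 1.89) and 1.12 for Sntn (2.94 to 4.30). Hydin was at 1.28 (2.96 to 4.22), Dnah12 at 1.67 (3.80 to 5.02) and Cd24a, a surface protein of ependymal cells and neuroblasts, at 0.75 (2.47 to 3.53). The median of the ependymal and motile cilia list was 1.21 (2.95 to 3.79).

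In mouse 72 the difference was 1.13 for Dlx2 (2.72 to 3.78), -0.17 for Trpc4 (2.94 to 3.88) and -1.06 for Nog (1.42 to 2.94). Of the spiny neuron peptides, Penk was at -0.38 (-2.44 to -1.68) and Pdyn at 0.49 (-1.04 to -0.39). Slc17a7 was at -2.68 (1.64 to 5.04), Tbr1 at -2.54 (2.16 to 4.61) and the cortical projection neuron list at a median of -1.35 (1.29 to 3.25), and the CP library of that mouse held the most cortical RNA. Clic6 was at 5.01 (0.86 to 2.82) and Ifi27 at 2.75 (0.57 to 1.52). In mouse 84 Nme5 was at 0.0824 (0.77 to 1.37) and Hhip at -2.05 (-1.18 to -0.50), and in mouse 68 Oasl2 was at 0.16 (1.60 to 2.47).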

How the results depend on the processing

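RLE scaling gave 1121 genes higher and 413 lower, DESeq2 1143 and 418, no filter 1585 and 427, and plexus libraries in the fit 1239 and 446, against 1112 and 414. Without a replicate block the pairing was dropped and 1121 and 401 were called, and among the named genes Ttr, Dlx6, Slc17a7, Tbr1 and Fos lost the threshold. Leaving out each mouse gave 1038 to 1178 higher, 387 to 479 lower and 357 to 425 marked. PBS mice alone gave 623 higher, 255 lower and 180 marked, and AL mice, as many, 1245, 521 and 440; the cause was not tested. The plexus covariate, chosen after seeing the data, gave 707 higher and 173 marked. In that fit Ttr (-1.25), Kl (-0.47), Kcnj13 (-1.0) and Aqp1 (-0.89) changed sign, all members of the plexus list from which the covariate was computed. Bmp4 (-0.25) and Smo (-0.11), which are not in that list, also changed sign, and the cause was not tested. Leaving out mice 72 and 76 together, also chosen afterwards, gave 1213 and 532. Marks at 2-fold covered 808 and at 8-fold 149 of the 1112. DESeq2 called 1 gene for the difference between experiments. Of 2413 values of named genes under alternatives, 2278 kept direction and side of the threshold, 127 fell short of it, 2 crossed it (Pcna) and 6 reversed. Sst lost the threshold without mouse 66, 76 or 80, and Mcm5 without mouse 66, 69, 76 or 84. Both also lost it without mice 72 and 76 together. Slc17a7 lost it without mouse 63, 66, 68 or 69. Subtracting the plexus share of each mouse was not run, since this share came to 615% of the plexus level in mouse 66 and 241% in mouse 72, so the plexus libraries are no pure reference. SVZ libraries of mice 66, 80 and 84 held under 5 M counts, which limits genes near the filter.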

Other observations

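Genes named for lymphocytes stood among those lowest in SVZ. Cd4, the T helper co-receptor, was between 21.2 and 42.1 CPM in 7 SVZ libraries, 95.1 CPM in mouse 72 and between 90.3 and 199 CPM in CP, with a log2 difference of -2.24 ± 0.232 (adjusted p = 4.09e-05, edgeR). Its mean was highest in CP of 15 regions, at 160 CPM, followed by corpus callosum at 91.3 CPM, SVZ at 36.5 CPM and the visual cortex at 1.45 CPM. Ikzf3 (the lymphoid factor Aiolos, -2.53) and Ptpn7 (a phosphatase of blood cells, -2.47) were also highest in CP of the 15 regions. Cd3e, the T cell receptor chain that every T cell carries, averaged 0.11 CPM in CP and 0.437 CPM in SVZ and was too low to test.

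Immediate early genes, which follow neuronal activity and handling, were lower for 7 of 10 without the fold limit and higher for 2, and 0 were called, at a median of -0.62. This count moved with the fit: 3 were called lower without mouse 72 and 1 without mouse 76, 5 in AL mice, and 6 lower and 1 higher with the plexus covariate (median -1.12). Egr1 was between 239 and 504 CPM in SVZ and between 465 and 786 CPM in CP (-0.92 ± 0.118, adjusted p = 0.00014, edgeR), and Nr4a1 was at -0.97. Fos (0.68) and Ier2 (0.86) passed in the other direction. The sum of the list averaged 995 CPM in SVZ and 1646 CPM in CP, and the motor cortex had 2261 CPM.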
